A study of Mus musculus with 2 samples.

Results

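The Rab GTPases are small proteins that switch between a GTP-bound and a GDP-bound state and steer the traffic of vesicles between membranes. The members described here are all genes on the array whose symbol is Rab followed by a number and at most a short letter suffix, which leaves out the forms that name regulators and effectors and a gene set aside by the selection rule. The rule uses symbols and no measured value. It found 57 genes among the 22010 genes with a symbol on the array, and 46 of them were measured among 14314 measured genes. A gene counts as measured where a probe was well above background in at least 1 arm on both arrays, and its brightest such probe stands for it.

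The study knocked down Lmo2 in G1E-ER-GATA-1 cells, an established mouse line that lacks its own GATA-1 and carries GATA-1 fused to the ligand-binding domain of the estrogen receptor. Both arms carried that genotype, were transfected with siRNA (LMO2 siRNA or control siRNA) and were then given b-estradiol for 24 h, which starts GATA-1-driven erythroid maturation. Total RNA of both arms was hybridised together to each of 2 two-colour arrays. On both arrays Cy5 marked control siRNA and Cy3 marked LMO2 siRNA, so an effect of the dye and an effect of the siRNA cannot be told apart. The arrays carry replicate numbers, but no label ties them to separate cultures, so the spread between these arrays may be technical. The p-values draw on that spread, pooled largely over all genes and only in small part each gene's own.

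LMO2 is a bridging protein that joins GATA-1, TAL1 and LDB1 into the complex that occupies many erythroid genes. A Rab is loaded with GTP by an exchange factor, binds effectors such as tethers and motor adaptors on its membrane, and is switched off by a GTPase-activating protein. Each Rab marks its own station of the pathway, from the endoplasmic reticulum and Golgi through endosomes and lysosomes to the secretory granule, and maturing red cells use endosomes for transferrin uptake and clear their organelles through autophagy.

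Of the 46 measured Rabs, 4 rose with LMO2 siRNA and 1 fell. Those words are used here only for genes that limma called in 1 direction (adjusted p under 0.05, Benjamini-Hochberg over all 14314 genes) in 3 sets of values: loess-normalised ratios, the same ratios after correction for position on the array, and the scanner software's processed signals. The 4 that rose are Rab1b, of traffic from the endoplasmic reticulum to the Golgi, and Rab13, Rab27a and Rab37, of outward traffic and secretory granules. The Rab that fell is Rab3b, of the family that acts in regulated exocytosis, and limma's robust prior does not call it (adjusted p = 0.13). The same rule took 8% of all genes (5.44% rose and 2.56% fell) and 10.9% of the Rabs, so the share of Rabs that changed is near that of all genes.

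The promoters of Rab1b, Rab13, Rab27a and Rab3b, the genes that changed other than Rab37, are shown because LMO2 acts on genes through GATA-1 and TAL1, whose usual letters are a GATA form and an E-box. The windows run from 250 bases before to 50 after an annotated start, are written in the direction of the gene, and come from RefSeq on build GRCm38.p6. Capitals mark every match on either strand to a GATA form, which here means AGATAA, the related letters AGATAG, the start variant TGATAA or the last variant TGATAG. They also mark every E-box, which is CANNTG. The Rab1b window is chr19:5106947-5107246 on the minus strand. The other windows are on the plus strand, at chr3:90213465-90213764 and chr3:90220534-90220833 for Rab13, chr9:73044560-73044859 and chr9:73063898-73064197 for Rab27a, and chr4:108878820-108879119 for Rab3b.
Rab1b: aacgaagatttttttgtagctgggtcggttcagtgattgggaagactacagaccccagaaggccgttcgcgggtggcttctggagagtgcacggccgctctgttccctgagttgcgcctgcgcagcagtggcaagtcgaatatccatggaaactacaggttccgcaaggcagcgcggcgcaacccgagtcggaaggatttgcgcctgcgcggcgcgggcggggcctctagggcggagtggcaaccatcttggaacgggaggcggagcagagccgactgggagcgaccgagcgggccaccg
Rab13, first start: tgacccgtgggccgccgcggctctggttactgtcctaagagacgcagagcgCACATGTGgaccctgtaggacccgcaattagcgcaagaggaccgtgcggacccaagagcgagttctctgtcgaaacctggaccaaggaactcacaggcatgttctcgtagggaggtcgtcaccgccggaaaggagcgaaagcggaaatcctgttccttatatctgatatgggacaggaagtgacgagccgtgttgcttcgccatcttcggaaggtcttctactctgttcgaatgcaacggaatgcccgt
Rab13, second start: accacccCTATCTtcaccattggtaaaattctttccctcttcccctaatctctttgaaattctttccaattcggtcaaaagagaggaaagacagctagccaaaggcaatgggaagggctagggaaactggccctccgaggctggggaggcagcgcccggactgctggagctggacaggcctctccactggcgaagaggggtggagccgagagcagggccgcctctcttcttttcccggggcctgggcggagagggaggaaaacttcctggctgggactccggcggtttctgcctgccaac
Rab27a, first start: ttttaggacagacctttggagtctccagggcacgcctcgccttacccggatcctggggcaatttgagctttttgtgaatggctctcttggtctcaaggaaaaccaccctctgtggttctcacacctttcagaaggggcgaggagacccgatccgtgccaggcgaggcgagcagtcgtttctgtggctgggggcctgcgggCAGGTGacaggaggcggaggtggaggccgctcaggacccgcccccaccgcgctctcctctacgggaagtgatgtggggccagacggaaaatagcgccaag
Rab27a, second start: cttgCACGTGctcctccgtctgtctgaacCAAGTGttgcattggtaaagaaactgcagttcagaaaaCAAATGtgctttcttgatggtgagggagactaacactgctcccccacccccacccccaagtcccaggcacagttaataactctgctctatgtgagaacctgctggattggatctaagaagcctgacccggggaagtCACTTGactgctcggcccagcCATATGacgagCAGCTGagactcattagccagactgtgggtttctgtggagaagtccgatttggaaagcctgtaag
Rab3b: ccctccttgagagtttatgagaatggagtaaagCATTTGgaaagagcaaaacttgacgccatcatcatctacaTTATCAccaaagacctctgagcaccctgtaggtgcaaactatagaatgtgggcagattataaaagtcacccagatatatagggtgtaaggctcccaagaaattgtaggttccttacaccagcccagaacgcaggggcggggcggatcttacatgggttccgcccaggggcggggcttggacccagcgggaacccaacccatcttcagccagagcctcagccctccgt
Rab1b had neither motif in its window. The first Rab13 window held 2 E-boxes that overlap in 1 run of capitals and no GATA form, and the second held 1 GATA form and no E-box. Rab27a had 1 E-box in its first window and 6 in its second, with no GATA form in either. Rab3b had 1 of each, with the E-box 217 bases and the GATA form 177 bases before the start.

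Over the Rab genes as a whole the motifs stood at shares near those of all promoters of the same length. Of 57 Rabs, 48 had an entry in the promoter table, with 60 windows between them. A GATA form was in 14 of those windows (23.3%) and in 29.8% of all 32851 windows. An E-box was in 41 (68.3%) and in 72.3% of all windows. The composite of an E-box followed by a GATA form after a gap of 6 to 12 bases was in 1 Rab window (1.67%), that of Rab5b, and in 1.46% of all windows. These matches describe letters in a window and were not tested as sites.

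The targeted gene fell: the log2 ratio of Lmo2 (LMO2 siRNA over control) was -1.82 on replicate 1 and -2.02 on replicate 2, a mean of -1.92 ± 0.14 (SD, n = 2; limma adjusted p = 3.6e-21). In each arm of each array 55.8% to 68.2% of spots stood well above background, and the lowest signal that counted as such was between 60.2 and 79.1 intensity units. The labels name the tissue as erythroid and the cell type as ES cells. Of 11 measured erythroid markers, the 3 globins were saturated and Alas2 (25404 to 27199 units) and Klf1 (25713 to 28503 units) were far above the floor. Of 7 pluripotent stem cell markers, Nanog, Sox2 and Zfp42 were not measured and Pou5f1 lay between 78.0 and 88.4 units, close to the floor. Esrrb and Tdgf1 (90.5 to 104 units) were not called, and Dppa5a (169 and 189 units against 133 and 141) was called higher at 0.38 (limma adjusted p = 1.6e-06), though not in processed signals and with its other probe at -0.01. Both arrays lie on the same slide and were scanned together. Levels below are normalised intensities that include an offset of 50 units, which shrinks the ratio of a dim gene. A level is compared only with the same gene's level in the other arm, and a sum over markers only with that of the same markers. Such a sum holds the offset of each gene in it and was not tested.

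Differences among the Rabs were small and went both ways. In the loess-normalised ratios, limma called 13 of 46 Rabs higher with LMO2 siRNA and 14 lower, or 58.7%, against 51.9% of all genes (24.5% higher and 27.4% lower). The median Rab had a log2 ratio of -0.02, as did the median of all genes, and the median size without sign was 0.17 for the Rabs and 0.14 for all genes. Single Rabs ran from -0.49 for Rab7, of late endosomes, to 0.57 for Rab12, which acts in membrane protein degradation and granule transport. No Rab differed by 1.5-fold or more in these ratios. The 19 uncalled Rabs lay between -0.13 and 0.14. For 34 of 46 Rabs the sign was the same on both arrays, against 82.2% of all genes.

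**Figure D1:**
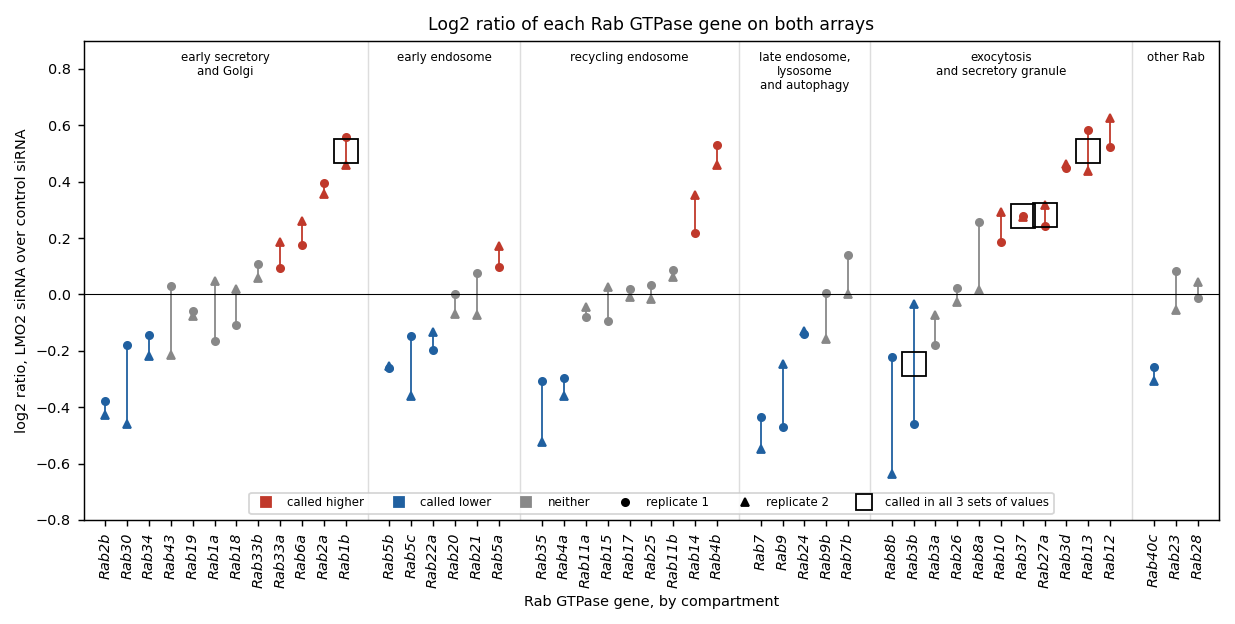
Log2 ratio (LMO2 siRNA over control siRNA) of the 46 measured Rab genes, grouped by the membrane they serve; the circle is replicate 1, the triangle replicate 2, and colour gives the limma call in the loess-normalised ratios. Boxes mark Rab1b, Rab13, Rab27a, Rab37 and Rab3b. Of the 11 exocytosis and granule Rabs 6 are called higher and 2 lower, where 24.5% and 27.4% of all genes are. The groups were drawn up with earlier results of these data known, so these counts are a description.

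The scale used to centre the arrays sets how many Rabs stand on each side. With each array centred on its median in place of loess, the median of all measured genes moved to -0.40 and that of the Rabs to -0.50. In that scaling 1 Rab was called higher, Rab13, and 28 were called lower. The share of all genes called in that scaling was not counted, so these counts cannot be set against it. The directions below therefore hold relative to other genes of like brightness, which is what loess compares. Of the 13 Rabs called higher with loess, Rab12, Rab13, Rab27a and Rab37 also had a ratio above 0 with median centring, and the other 9 lay below 0.

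**Figure D2:**
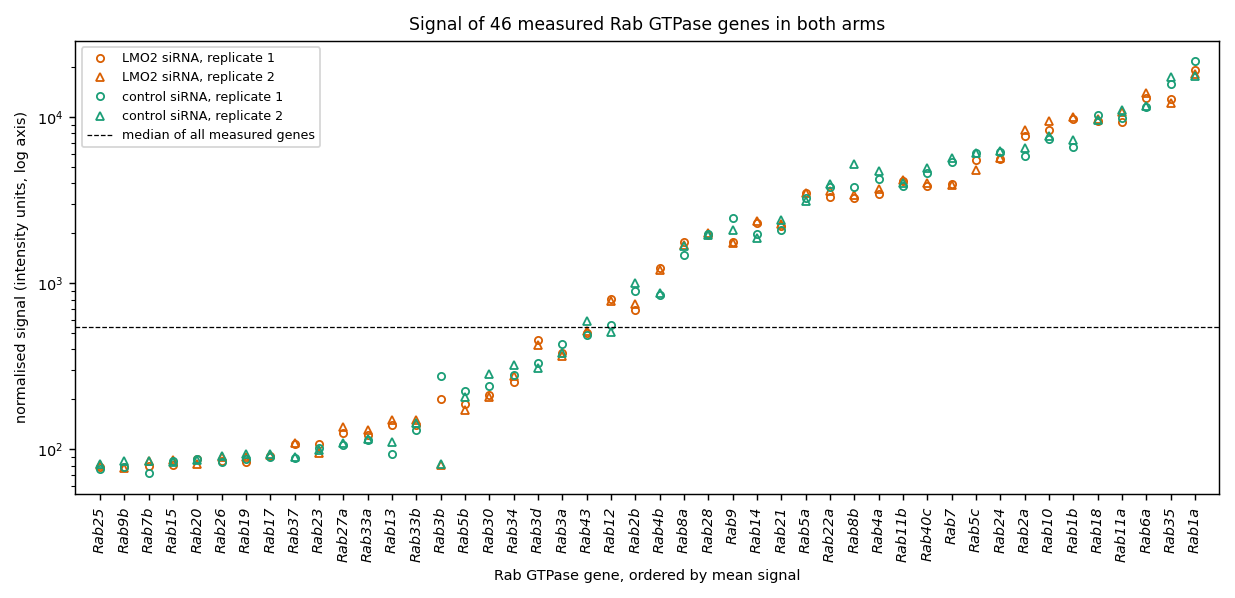
Normalised signal in intensity units (log axis) of the 46 measured Rab genes in each arm of each array, ordered by mean signal; the dashed line is the median of all measured genes. Arms of 1 gene lie close together for most genes, and the arrays of Rab3b lie far apart (201 and 276 units on replicate 1, 80.1 and 82.1 on replicate 2).

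The Rabs of the early secretory pathway and the Golgi split evenly: of 16 members 12 were measured, with 4 called higher, 3 lower and 5 neither, and a median log2 ratio of -0.05. By the same test 24.5% of all genes were called higher and 27.4% lower. Rab1b drives the delivery and tethering of vesicles at the Golgi. Its signal was 9803 and 10033 units with LMO2 siRNA and 6656 and 7296 units with control siRNA on replicates 1 and 2. The arms did not overlap, and both LMO2 siRNA values were above both control values. The mean log2 ratio was 0.51 ± 0.07 (SD, n = 2), a 1.42-fold rise with the same direction on both arrays (limma adjusted p = 9.9e-09). With position correction it was 0.48 (limma adjusted p = 9.8e-05), in processed signals 0.49 (limma adjusted p = 0.046), and with median centring -0.20, against -0.40 for the median of all genes. The other Rab1b probe, in row 37 of the array where the first lies in row 312, read -0.06 without and 0.25 with position correction.

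Rab1a, the close relative of Rab1b with the same station, did not pass the test. Its signal was 19392 and 18356 units with LMO2 siRNA and 21762 and 17750 units with control siRNA, so the arms overlapped, and its log2 ratios were -0.17 and 0.05 (mean -0.06, limma adjusted p = 0.44). The other pair of early Rabs, Rab2a and Rab2b, was called in opposite directions. Rab2a, which acts between the endoplasmic reticulum and the Golgi, stood at 7746 and 8357 units against 5887 and 6520 in control, a log2 ratio of 0.38 ± 0.03 (limma adjusted p = 1.5e-06). Its other probe read 0.43, and position correction took the first probe to 0.23 (limma adjusted p = 0.0064). Rab2b stood at 691 and 752 units against 898 and 1011 in control, a log2 ratio of -0.40 ± 0.03 (limma adjusted p = 5.5e-07). Position correction took Rab2b to -0.08, where limma no longer called it (adjusted p = 0.25). The difference between the genes of a pair was not tested.

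Among the Golgi Rabs, Rab6a, which returns vesicles to and within the Golgi, stood at 13079 and 13946 units against 11593 and 11646 in control (log2 ratio 0.22, limma adjusted p = 0.0018; 0.19 with position correction, adjusted p = 0.017). Rab33a read 122 and 131 units against 114 and 115, a log2 ratio of 0.14 called only without position correction (0.09 with it). Rab30, a Golgi Rab, read 212 and 207 units against 240 and 284, and its log2 ratio went from -0.32 to -0.03 with position correction. Rab34, which binds at the Golgi and helps to position lysosomes, read 254 and 278 units against 281 and 323. It was called lower both ways, at -0.18 (limma adjusted p = 0.008) and at -0.24 with position correction (adjusted p = 0.0052), but not in processed signals (-0.32, adjusted p = 0.07). Rab18, Rab19, Rab33b and Rab43 were called in none of the 3 sets of values.

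Of 6 measured early endosome Rabs 3 were called lower, 1 higher and 2 neither (27.4% and 24.5% of all genes were called lower and higher), and none rose or fell in all 3 sets of values. With position correction 2 were called higher, Rab5a and Rab22a, and 1 lower, Rab5b, and the median log2 ratio went from -0.10 to -0.0062. Rab5 proteins control the fusion of early endosomes and the entry of receptors such as that of transferrin, and the 3 forms did not move alike. Rab5a read 3482 and 3527 units against 3252 and 3128 in control, a log2 ratio of 0.14 (limma adjusted p = 0.045) and of 0.23 with position correction (adjusted p = 0.0072). Rab5b read 187 and 174 units against 224 and 208, a log2 ratio of -0.26 on each array (limma adjusted p = 2.6e-04). After position correction it was -0.28 (limma adjusted p = 0.0022), and the processed signals gave -0.44, just short of the threshold (adjusted p = 0.050). Rab5c read 5552 and 4792 units against 6144 and 6146, a log2 ratio of -0.25 (limma adjusted p = 6.6e-04) that was not called with position correction (-0.15, adjusted p = 0.098). In each of the 3 genes, all of them called, the arms did not overlap. The share of all genes without overlap was not counted. The other Rab5a probe read -0.16, and differences between the forms were not tested.

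Rab22a, which acts between early endosomes and the Golgi, was the 1 Rab called in opposite directions by position correction. Its signal was 3311 and 3614 units with LMO2 siRNA and 3792 and 3959 units with control siRNA, a log2 ratio of -0.16 (limma adjusted p = 0.016). Its probe lies in row 28 of 532, and the corrected ratio was 0.21 (limma adjusted p = 0.023), so no direction is given for it. Rab20 and Rab21 were not called in any of the 3 sets of values.

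All 9 recycling Rabs were measured, with 2 called higher, 2 lower and 5 neither, and a median log2 ratio of 0.01. Of all genes, 24.5% were called higher and 27.4% lower. Rab4a and Rab4b, which return receptors rapidly to the surface, were called in opposite directions. Rab4b read 1230 and 1207 units with LMO2 siRNA against 851 and 879 with control siRNA, a log2 ratio of 0.49 ± 0.05 (1.41-fold, limma adjusted p = 1.5e-08). Rab4a read 3460 and 3698 units against 4244 and 4751, a log2 ratio of -0.33 ± 0.05 (limma adjusted p = 1.3e-05). Both calls held with position correction, at 0.30 (limma adjusted p = 0.0014) and -0.19 (adjusted p = 0.016). In processed signals neither passed, at 0.31 (limma adjusted p = 0.067) and -0.20 (adjusted p = 0.11), and with median centring Rab4b read -0.08.

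Rab11a and Rab11b, the Rabs of the slow recycling compartment, were not called in the loess-normalised ratios. Rab11a read 9349 and 10787 units against 9881 and 11118 in control (log2 ratio -0.06), and position correction took it to 0.19 (limma adjusted p = 0.017). Its other 2 detected probes read -0.27 and -0.40 without and -0.0026 and -0.24 with position correction, so no direction is given for it. Rab11b read 4113 and 4199 units against 3877 and 4022 (log2 ratio 0.07, limma adjusted p = 0.29). Rab35, which also returns cargo to the surface, read 12936 and 12266 units against 15988 and 17614. Its log2 ratio was -0.41 ± 0.15 (limma adjusted p = 8.8e-07) without and -0.10 (adjusted p = 0.19) with position correction, and its probe lies in row 50. Rab14 read 2303 and 2384 units against 1980 and 1869, at 0.28 without and 0.24 with position correction (limma adjusted p = 0.0067), while its other 2 probes read -0.41 and -0.06. Rab15, Rab17 and Rab25, known mainly from nerve and epithelium, read between 76.1 and 93.7 units in every arm, close to the floor.

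Of 5 measured late endosome, lysosome and autophagy Rabs 3 were called lower, 0 higher and 2 neither, where 27.4% and 24.5% of all genes were called lower and higher, with a median log2 ratio of -0.14. At an unadjusted p under 0.05 limma also put 0 of the 5 higher. Rab7, which carries endosomes to lysosomes and autophagosomes to fusion, read 3959 and 3914 units with LMO2 siRNA and 5357 and 5727 units with control siRNA. The arms did not overlap, and the log2 ratio of -0.49 ± 0.08 (limma adjusted p = 2e-08) was the lowest of any Rab. With position correction it was -0.16 (limma adjusted p = 0.035), with its probe in row 37, and the other Rab7 probe read 0.12. Rab9, of the return route from late endosomes to the Golgi, read 1777 and 1756 units against 2461 and 2086, and went from -0.36 to -0.11 (limma adjusted p = 0.20) with position correction. Rab24, linked to autophagy, read 5612 and 5694 units against 6182 and 6236. It was called lower at -0.14 (limma adjusted p = 0.044) and, with position correction, at -0.29 (adjusted p = 0.0015), but not in processed signals (-0.30, adjusted p = 0.069). Rab7b and Rab9b read between 71.8 and 85.7 units, close to the floor.

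The exocytosis and secretory granule Rabs held 4 of the 5 Rabs that changed in all 3 sets of values. Of 12 members 11 were measured, with 6 called higher, 2 lower and 3 neither, where 24.5% of all genes were called higher and 27.4% lower. In all 3 sets of values 3 of the 11 rose and 1 fell, where 5.44% of all genes rose and 2.56% fell. Their median log2 ratio was 0.24 (all genes -0.02), position correction gave 0.19 (all genes -0.01) and processed signals gave 0.18 (all genes -0.03). The grouping was drawn up with earlier results of these data known, so these counts are a description. The 4 that changed, Rab13, Rab27a, Rab37 and Rab3b, are dim, at 80.1 to 276 units. Their ratios were larger in processed signals, which carry no offset. Rab12 (0.57) and Rab3d (0.46) of the same group are brighter and were not called in processed signals. The part of low signal in these counts was not tested.

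Rab13, which carries cargo to cell junctions and the surface, read 141 and 151 units with LMO2 siRNA and 94.1 and 111 units with control siRNA. It rose by a log2 ratio of 0.51 ± 0.10 (1.42-fold, both arrays, limma adjusted p = 1.2e-08), by 0.43 with position correction and by 0.94 in processed signals (adjusted p = 0.033). It was also the 1 Rab called higher with median centring, at 0.33 (limma adjusted p = 0.0018). Rab27a, which docks granules and melanosomes, read 125 and 137 units against 106 and 110. It rose by 0.28 ± 0.05 (limma adjusted p = 1.1e-04), by 0.47 with position correction (its probe lies in row 31), and by 0.87 in processed signals (adjusted p = 0.036). Rab37, of mast cell and other secretory granules, read 108 and 109 units against 89.3 and 89.9. It rose by 0.28 ± 0.0015 (limma adjusted p = 1.2e-04), by 0.23 with position correction and by 0.84 in processed signals (adjusted p = 0.035), and its other detected probe read 0.27. In these 3 genes every LMO2 siRNA value was above every control value, but the signals are dim. The genes were picked by their calls, so this separation adds little to them. The share of all genes with such a separation was not counted. With median centring Rab27a (0.12, limma adjusted p = 0.32) and Rab37 (0.21, adjusted p = 0.057) were not called.

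Rab3b fell, but in the loess-normalised and position-corrected ratios the size of its fall rests on replicate 1. Its signal was 201 units with LMO2 siRNA and 276 with control siRNA on replicate 1, and 80.1 and 82.1 on replicate 2, so the arms overlapped. The LMO2 siRNA arm was well above background on 1 of 2 arrays. The log2 ratios were -0.46 and -0.04, a mean of -0.25 ± 0.30 (limma adjusted p = 0.0031). Position correction gave -0.24 (limma adjusted p = 0.036), from -0.42 on replicate 1 and -0.05 on replicate 2. Processed signals, which carry no offset, gave -0.61 (limma adjusted p = 0.034), from -0.62 and -0.60. With limma's robust prior the loess-normalised ratio was not called (adjusted p = 0.13). Without replicate 1 the loess-normalised ratio was -0.04 and without replicate 2 -0.46.

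A further 3 granule and surface Rabs were called higher in loess-normalised ratios without passing in processed signals. Rab12 read 806 and 785 units against 560 and 509, a log2 ratio of 0.57 ± 0.07 (1.49-fold, limma adjusted p = 9.5e-10), of 0.36 with position correction (adjusted p = 7.0e-04) and of 0.39 in processed signals (adjusted p = 0.063). Its other 2 detected probes, both dim, read -0.04 and -0.0045. Rab3d, found on secretory granules of blood and gland cells, read 454 and 428 units against 333 and 311. Its log2 ratio was 0.46 ± 0.01 (limma adjusted p = 5.9e-08), 0.31 with position correction (adjusted p = 0.0011) and 0.37 in processed signals (adjusted p = 0.054), while its other probe read -0.08. Rab10, which delivers transporters to the surface, read 8387 and 9504 units against 7379 and 7751, at 0.24 (limma adjusted p = 7.3e-04) and, with position correction, at 0.15 (adjusted p = 0.059).

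Rab8a and Rab8b, which share the route from the Golgi to the plasma membrane, differed in their calls. Rab8b read 3259 and 3389 units against 3800 and 5270.5 in control, a log2 ratio of -0.43 ± 0.29 (limma adjusted p = 4e-06), and -0.31 with position correction (adjusted p = 0.015). Its array ratios were -0.22 and -0.64, and its other 2 probes read -0.12 and -0.11. Rab8a read 1777 and 1700 units against 1488 and 1682, with both LMO2 siRNA values above both control values, and was not called (0.14, limma adjusted p = 0.06). Rab3a, the synaptic vesicle form, read 380 and 364 units against 431 and 383 and was called only with position correction, at 0.19 (limma adjusted p = 0.031). Rab26 was called in none of the 3 sets of values.

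Some markers of other blood lineages that carry granules also moved. Of 6 measured mast cell markers 2 rose, Hdc (816 and 884 units against 336 and 396, log2 ratio 1.22) and Cpa3 (log2 ratio 0.37), and none fell. The other 4, Fcer1a, Tpsb2, Mcpt4 and Cma1, were not called, with log2 ratios between -0.03 and 0.06. The summed level was 1287 and 1394 units against 789 and 870, and most of that difference was Hdc. Of 8 measured megakaryocyte markers, Gp1ba (1.18) and Gp5 (0.62) rose, Gp9 (-0.31) fell and 5 were not called. Their sums were 3127 and 3364 units against 2327 and 2375, of which Gp1ba alone read 1635 and 1824 against 738 and 788. Of 5 measured granulocyte and macrophage markers, Cd68 (0.55) and Ltf (0.16) rose and 0 fell, with sums of 593 and 682 units against 564 and 641. Ltf read 91.0 and 92.9 units against 82.1 and 82.5, close to the floor. The other 3, Csf1r (-0.12), Itgam (-0.09) and Mpo (-0.03), were not called. Ms4a2, Ppbp, Adgre1 and Elane were not measured. The part of these markers in the values of Rab13, Rab27a, Rab37 and Rab3d was not tested, and in total RNA a change in the number of cells of a type and in RNA per cell cannot be told apart.

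The remaining Rabs added 1 call. Rab40c, a Rab joined to a ubiquitin ligase module, read 3873 and 4018 units against 4623 and 4967. Its log2 ratio went from -0.28 (limma adjusted p = 1.0e-04) to -0.04 (adjusted p = 0.60) with position correction. Rab23, a brake on hedgehog signalling, and Rab28 lay at 0.01 and 0.02. The 11 members that were not measured are Rab3c, Rab6b, Rab29, Rab31, Rab32, Rab36, Rab38, Rab39, Rab39b, Rab40b and Rab42. They include both Rabs of melanosomes and other lysosome-related organelles, Rab32 and Rab38. Their brightest probes read between 62.3 and 82.4 units in control and, with 1 exception, close to the floor with LMO2 siRNA. The exception is a Rab31 spot at 388 units on replicate 2, flagged by the scanner software as an outlier, against 67.5 on replicate 1.

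Calls of Rabs followed the row of the probe on the array. All genes showed a drift, from a median log2 ratio of -0.17 in rows 1 to 133 through -0.06 and 0.03 to 0.12 in rows 400 to 532. Of 12 Rabs in rows 1 to 133, 7 were called lower and 1 higher, and of 11 in rows 400 to 532, 6 were called higher and 2 lower. Over the whole array 27.4% of all genes were called lower and 24.5% higher. The shares of all genes called within these rows were not counted, so whether the Rabs differ from other genes there is not known. The median row was 117 for Rabs called lower and 363 for those called higher. Dividing each signal by the scanner software's own position ratio brought all 4 medians of all genes to between -0.02 and 0.0046. It took the median of the Rabs in rows 1 to 133 from -0.22 to -0.0038, and that in rows 400 to 532 from 0.28 to 0.23.

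**Figure D3:**
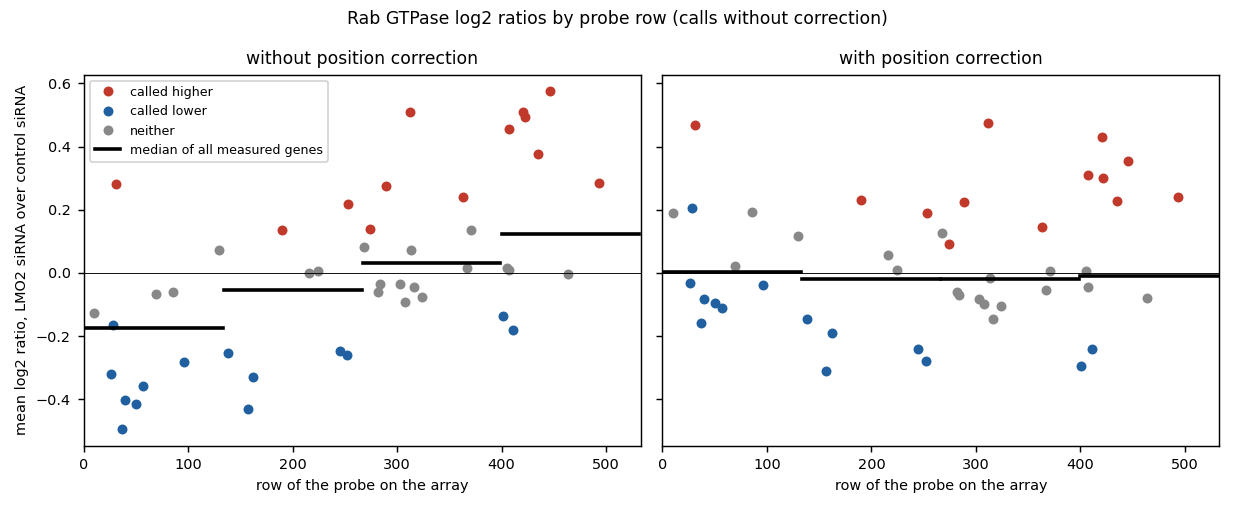
Mean log2 ratio of each measured Rab gene (LMO2 siRNA over control siRNA) against the row of its probe, without and with position correction; colour gives the call without correction and black bars the median of all measured genes in 4 equal blocks of rows. The bars climb from -0.17 to 0.12 on the left and lie near 0 on the right, and most genes called lower in the first 133 rows move up to near 0.

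With position correction limma called 14 Rabs higher and 7 lower, or 45.7%, against 38.2% of all genes (20.3% higher and 17.9% lower). Of the 27 Rabs called before, 18 kept their direction, 11 of them higher and 7 lower, and Rab22a turned. Over all genes, 29.5% were called in 1 direction both ways. The Rabs called lower shifted up by a median of 0.19 and those called higher shifted by -0.05. Among those called lower without it, Rab2b, Rab5c, Rab9, Rab30, Rab35 and Rab40c were no longer called. In processed signals limma called 4 Rabs higher and 1 lower, or 10.9%, against 10.2% of all genes (6.82% higher and 3.42% lower). Those ratios carry no offset, and 4 Rabs reached 1.5-fold in them: Rab13, Rab27a, Rab37 and Rab3b, all dim.

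**Figure D4:**
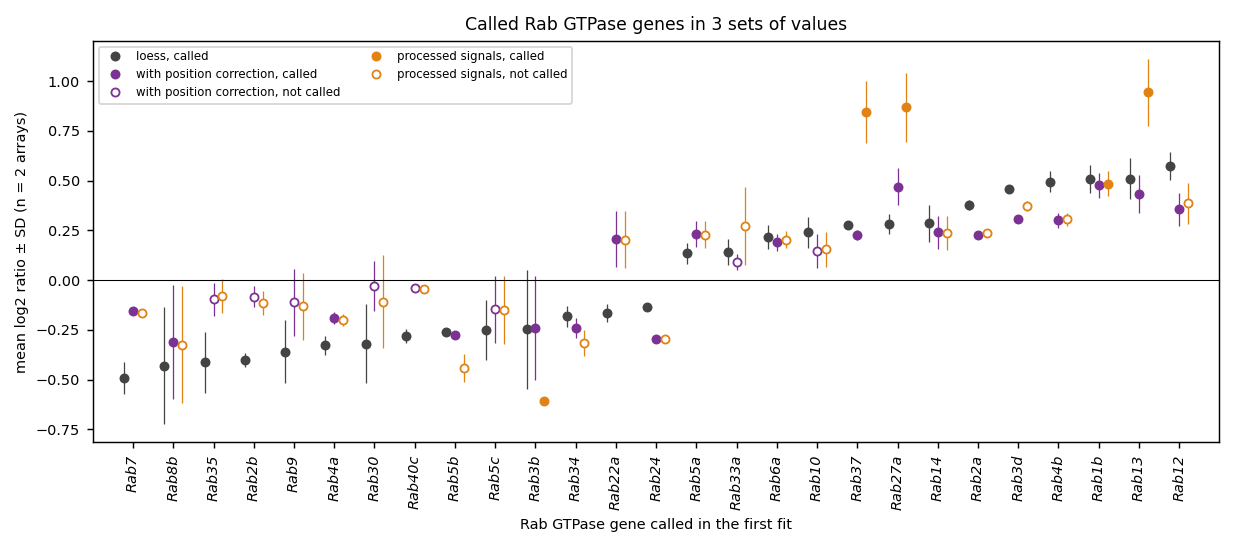
Mean log2 ratio ± SD over 2 arrays of the 27 Rab genes called in the loess-normalised ratios, in those ratios, with position correction and in processed signals; open points were not called. Most of the points on the left shrink toward 0 with position correction, and the filled processed-signal points are Rab3b, Rab37, Rab27a, Rab1b and Rab13.

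Probes of the same Rab often disagreed. The 57 members have 110 probes, of which 84 were detected, and 26 members had several detected probes. In 11 of these the probes differed in sign (Rab1b, Rab3d, Rab5a, Rab7, Rab11b, Rab12, Rab14, Rab21, Rab22a, Rab40c and Rab43), and with position correction 15 did. With all detected probes of a gene averaged, limma no longer called Rab5a, Rab10, Rab14, Rab22a, Rab24 and Rab40c, and newly called Rab11a (-0.24, adjusted p = 0.0010), Rab18 (-0.20) and Rab21 (-0.16) lower and Rab28 (0.15) higher. No member had a saturated spot in its chosen probe. Of 46 measured Rabs, 16 had a mean level under 200 units, and there the offset and the background bear most on the ratio.

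Among the genes that load, switch and read the Rabs, 2 had log2 ratios above 1, Mical1 (1.48) and Dennd1c (1.09), and the highest Rab was at 0.57. All 8 genes of prenylation and membrane extraction were measured, with 2 called higher, 3 lower and 3 neither (62.5% called, against 51.9% of all genes). Rabac1, a receptor that helps prenylated Rabs onto membranes, read 13717 and 15199 units with LMO2 siRNA against 8682 and 9457 with control siRNA and rose 1.59-fold (log2 ratio 0.67 ± 0.02). Gdi2, which draws Rabs off membranes, went from -0.31 to -0.07 with position correction.

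Of 41 measured exchange factors 17 were called higher and 12 lower, or 70.7%, against 51.9% of all genes. In all 3 sets of values 3 rose and 1 fell, where 5.44% of all genes rose and 2.56% fell. Dennd1c, of the DENN family that loads Rab35, read 475 and 612 units against 228 and 282 and rose 2.13-fold (log2 ratio 1.09 ± 0.04, limma adjusted p = 7.3e-16). Rin3, a loader of Rab5 proteins, read 251 and 284 units against 161 and 180 and rose by 0.65 ± 0.01. Trappc6a, a subunit of the TRAPP complex that loads Rab1, read 12922 and 12762 units against 9048 and 8215 and rose by 0.57 ± 0.09, while its other probe read -0.02. Dennd3, a loader of Rab12, read 789 and 559 units against 1192 and 833 and fell, with a log2 ratio of -0.59 ± 0.01.

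Of 33 measured GTPase-activating proteins 13 were called higher and 7 lower (60.6%, against 51.9% of all genes). Tbc1d9b was the 1 that rose in all 3 sets of values, at 951 and 946 units against 596 and 646 (log2 ratio 0.61 ± 0.09), and 1 of its 3 detected probes read -0.02. Of these 33 genes 0 fell, and by that rule 5.44% of all genes rose and 2.56% fell. Of 36 measured effectors 11 were called higher and 11 lower (61.1%, against 51.9% of all genes). In all 3 sets of values 2 rose, Mical1 and Eea1, and 0 fell, beside the same 5.44% and 2.56% of all genes. Mical1, an oxidase of actin that binds Rab1 and Rab8 family members, read 5820 and 7342 units against 2076 and 2645. It rose 2.79-fold, at log2 ratios of 1.49 and 1.47 (mean 1.48 ± 0.01, limma adjusted p = 4.5e-19), and by 1.40 with position correction. Eea1, the tether that Rab5 recruits to early endosomes, read 324 and 340 units against 260 and 270 and rose by 0.33 ± 0.01, with its 4 detected probes between 0.04 and 0.50.

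**Figure D5:**
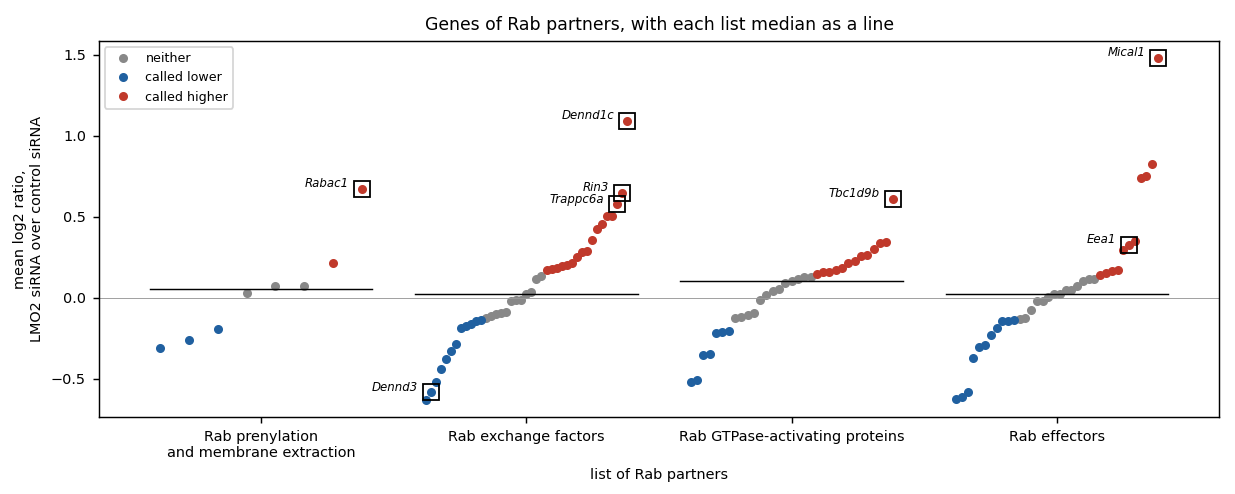
Mean log2 ratio (LMO2 siRNA over control siRNA) of the measured genes of each list of Rab partners; colour gives the limma call, boxes mark genes that rose or fell in all 3 sets of values, and lines are list medians. The list medians lie between 0.02 and 0.10, and Mical1 (1.48) and Dennd1c (1.09) stand highest.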

How the data were processed

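Per the file headers, Agilent Feature Extraction 9.1.3.1 measured the spots. For each channel the deposited files hold mean signal, local background and processed signal as intensity, with a position ratio. Their deposited log10 ratio divides red by green, and the value table of the series repeats those log10 values within 0.005. Per the file headers, the software made the processed signals by subtracting background, correcting position and normalizing the dyes.

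Here, mean signals were corrected with normexp (offset 50) and loess in limma 3.58.1 (R 4.3.3), with 1639 control spots at weight 0 and then left out. Log2 ratios divide LMO2 siRNA by control. For position correction, the corrected signal was divided by the deposited position ratio before the offset. Replicate spots of a probe were averaged. Of 41174 probes, 24844 were named by accession through a RefSeq gene table, 9636 kept the array file's symbol and 6694 had none. The test was lmFit and eBayes on the mean log2 ratio of a gene against 0, called at 0.05 after Benjamini-Hochberg adjustment over the 14314 genes. It had 1 residual degree of freedom and a prior worth 28.0 (2.2 in processed signals). A p-value in the loess-normalised ratios therefore rests mostly on the spread pooled over all genes, and little on that of the gene itself. Precision is limited by the number of arrays.

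Members, roles, lists, markers and the rule of 3 sets of values were chosen with earlier results of these data known. Every member may be named, and from each partner list the genes that rose or fell, with Gdi2 added after its values were seen. Protein sequences were not used here.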

Additional observations from a re-analysis of the deposited data

How the results depend on the processing

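Under a lower offset, no background correction, other filters, other variance priors, and removal of outlier or saturated spots, counts of called Rabs stayed within 1.5 times of 13 higher and 14 lower, though the robust prior ended the call of Rab3b (adjusted p = 0.13). Lower calls numbered 7 with position correction. Processed signals and the series' own table each gave 4 higher and 1 lower. Median centring gave 1 higher and 28 lower and a Rab median of -0.50. The median of all genes was then -0.40, and the share of all genes called was not counted. A test against 1.5-fold gave 0 in each direction in limma, and 0 at an unadjusted p under 0.05. The Rab median was -0.022 on replicate 2 and 0.013 on replicate 1 alone, which leaves no residual degrees of freedom and so no test.

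Of Rabs called in either setting, signs turned with median centring for Rab1b (-0.20), Rab2a (-0.33), Rab3d (-0.00038), Rab4b (-0.077), Rab5a (-0.52), Rab6a (-0.52), Rab8a (-0.47), Rab10 (-0.47), Rab11b (-0.60), Rab14 (-0.34), Rab21 (-0.63), Rab28 (-0.61) and Rab33a (-0.031). They turned with position correction for Rab3a (0.19), Rab11a (0.19) and Rab22a (0.21), and in processed signals and the series' table for Rab22a (0.20 in each). Averaging all detected probes turned Rab5a (-0.013), Rab14 (-0.060) and Rab21 (-0.16). The causes were not tested.

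Among partner lists, position correction gave 1 higher and 0 lower for prenylation (0 lower at unadjusted p too), 7 lower exchange factors and 5 lower effectors. Of all genes, 20.3% were called higher and 17.9% lower with position correction, and 6.82% and 3.42% in processed signals. Processed signals gave in limma 1 higher and 0 lower for prenylation (0 lower unadjusted), 3 and 2 for exchange factors, 1 and 0 for GTPase-activating proteins (6 lower unadjusted) and 4 and 0 for effectors (5 lower unadjusted). Median centring gave 0 and 7, 2 and 29, 0 and 24, and 4 and 23 in that order, where each 0 was also 0 at an unadjusted p under 0.05 in limma. The share of all genes called with median centring was not counted, so these numbers have nothing to be set against. No further pairing was possible, because the arrays form 1 group and each ratio, tested against 0, already pairs both arms.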
